A study of Mus musculus with 62 samples.

Results

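The punches of the suprachiasmatic nucleus (SCN) in this series differed widely in the levels of genes that mark SCN neurons, and the 6 punches with the highest levels were compared with the 6 with the lowest. The groups were chosen by the measured levels of 3 genes that mark SCN neurons, Six6, Lhx1 and Syt10, and not by any label of the samples. For each of 17 SCN libraries the score was the mean over the 3 genes of the z-score, across the libraries, of log2(CPM + 1), where CPM is the count scaled to the size of the library. The 6 highest libraries are called SCN-neuron-rich, the 6 lowest SCN-neuron-poor, and 5 libraries lay between them. These 12 libraries are part of 62 in the series, of which 19 came from the SCN; the libraries of mice J1199 and J1140 were left out by the rule and received no score.

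The study exposed male and female C57BL/6J mice to circadian rhythm disruption (CRD), repeated 12 h shifts of the light/dark cycle, and kept handled controls on a fixed cycle; the sequenced mice were from its adolescent arm. Brains were taken about 4 weeks after CRD or the control paradigm, at zeitgeber time (ZT) 6, in the light phase, and the SCN, nucleus accumbens (NAc) and prefrontal cortex (PFC) were punched from frozen tissue, with 1 mouse per library. Region and mouse number are labelled, but CRD and sex are not, so neither was assigned, and a difference between rich and poor punches cannot be told apart from an uneven share of CRD or female mice. Fewer SCN neurons in a punch and less RNA of these genes per neuron likewise cannot be told apart in bulk tissue.

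The SCN is a paired nucleus of the ventral hypothalamus, just above the optic chiasm, and is the principal circadian pacemaker of mammals. Nearly all of its neurons make GABA, and they differ in the peptides they release: neurons of the ventral core make vasoactive intestinal peptide (Vip) or gastrin-releasing peptide (Grp) and receive input from the retina, while neurons of the dorsal shell make arginine vasopressin (Avp). Each neuron runs the same clock, in which CLOCK and ARNTL drive the Period and Cryptochrome genes through E-boxes and the proteins of those genes repress their own transcription. A punch of the SCN can also hold neighbouring hypothalamus, ependymal cells of the third ventricle, myelin of the optic chiasm, and glia and vessels.

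Six6 (chromosome 12, 72939892 to 72944899 of GRCm38) is a homeodomain factor needed for the SCN to form, Lhx1 (chromosome 11, 84518284 to 84525535) a LIM homeodomain factor of SCN neurons, and Syt10 (chromosome 15, 89782393 to 89841860) a synaptotagmin. Six6 ranged from 7.16 to 25.1 CPM in the poor punches and from 30.9 to 41.5 CPM in the rich ones. Lhx1 ranged from 2.09 to 7.93 CPM in the poor and from 15.1 to 24.2 CPM in the rich punches, and Syt10 from 9.07 to 65.1 CPM and from 67.3 to 102 CPM. These ranges follow from the choice of the groups and carry no test, and the 3 genes are left out of every count below. The poor punch with the highest score (J1162) had -0.193 and the next library outside the group -0.0942, and the rich punch with the lowest score (J1141) had 0.555 with 0.391 for the next library outside. Exons of Six6 overlap those of 4930447C04Rik, and whether strand was used in counting is not given in the sources used here.

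**Figure D1:**
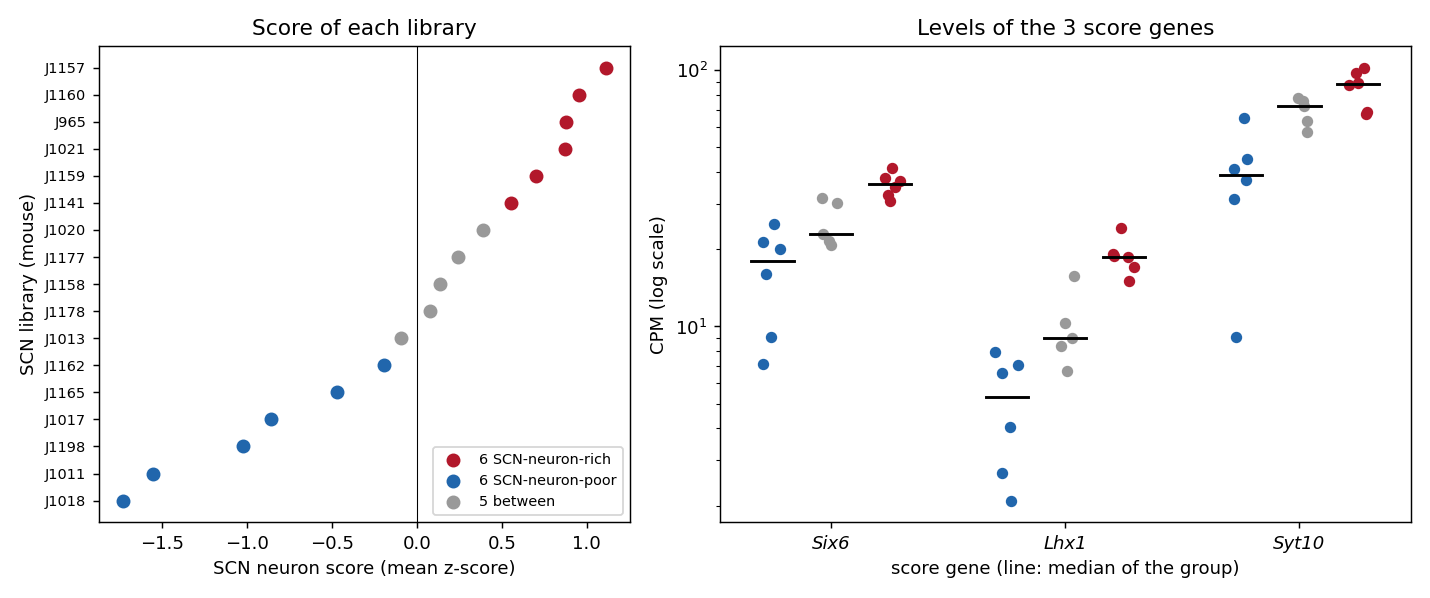
Score of each of the 17 SCN libraries by mouse (left, in z units) and CPM of the 3 score genes on a log scale by group (right, lines are medians). The groups were cut from a continuous score that ran from -1.73 (J1018) to 1.11 (J1157).

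Depth and ribosomal RNA share differed between the rich and poor groups, with overlapping ranges. Total counts were 18174520 to 35389742 in the rich and 18348316 to 24893760 in the poor punches. The share of counts on mitochondrial ribosomal RNA and 3 ribosomal RNA-like genes was 29.5% to 53.6% (median 49.3%) in the rich and 50.2% to 60.9% (median 55.4%) in the poor punches. In the punches between the groups it was 53.5% to 63.0% (median 58.0%), so the share did not run in order of the score. The rich punches J1157 and J1159 were the deepest, with 35389742 and 35282533 counts, and had the lowest shares, 29.5% and 34.6%. The SCN library of mouse J1165, in the poor group, held 53.5 CPM of Xist, the RNA of the inactive X chromosome, while that mouse's NAc and PFC libraries held 0.569 and 0.375 CPM. This library thus goes against the other libraries of its mouse, and counts are also given without it. Xist was above 50 CPM in 2 rich and 3 poor punches. Mouse numbers fall into a lower and an upper range, which hold 2 and 4 of the rich and 3 and 3 of the poor punches. Fits that hold depth, ribosomal RNA share or the range of mouse numbers as a term are given with the counts of genes below.

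Rich punches had higher levels of Rgs16, Nr4a3, Vip, Six3 and Per2, among others, by log2 fold changes of 1.29 to 1.68, and lower levels of Rgs4 (-1.09) and Dgkb (-0.76). Of 12044 genes tested in the 6 rich against 6 poor punches, edgeR's quasi-likelihood test called 126 (1.05%), which takes a fold change of at least 1.2 and an adjusted p (Benjamini-Hochberg) under 0.05. Of these, 97 were higher in the rich punches (0.805% of the genes tested), with a median log2 fold change of 0.87, and 29 were lower (0.241%), with a median of -0.69. The median over all genes was 0.01, and 3111 of the 12044 genes had an unadjusted p under 0.05. The counts at that p given for lists below are to be read beside this number. The rich and poor ranges did not overlap for 257 genes (2.13%), among them 71 of the genes called higher and 24 of those called lower. The p-values describe how a gene moved with the 3 score genes over these punches, and not an effect of a treatment. The number of calls depended on the libraries and covariates. It was 50 without J1011, 55 without J1198, 57 without J1157, 62 without J1160, 64 without J1159, 67 without J965, 67 without J1018, 72 without J1017, 377 without J1141 and 693 without J1165, and all 126 genes kept their direction in each of these fits. With total count as a covariate 68 genes were called, and with the range of mouse numbers 113. With the share of ribosomal RNA as a covariate, edgeR called 0 genes, with 972 at an unadjusted p under 0.05. In that fit all 126 genes kept their direction, with a median log2 fold change of 0.68 for the 97 and -0.57 for the 29. DESeq2 called 861 genes in the comparison without a covariate, of which 58.4% were higher, against 77% by edgeR. Below, a gene is called or not called by edgeR in the 6 against 6 comparison unless DESeq2 or the 17 libraries are named.

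Over all 17 libraries, with the score as a continuous measure, 727 of 12044 genes followed it (6.04%), 466 upward (3.87%) and 261 downward (2.17%), by the same test. Both analyses use the same 12 libraries. Of the 126 genes, 122 were also called over the 17 libraries in the same direction, which is 96.8% of the first list and 16.8% of the second. With the share of ribosomal RNA as a covariate, 348 genes followed the score. The slope was called for 138 genes without J1018 and J1011, the libraries farthest from the median score, and for 304 genes without J1157 and J1159. Within the lower range of mouse numbers 146 genes and within the upper range 7 genes were called; the difference of the slope between the ranges was called for 0 genes by edgeR, with 506 at an unadjusted p under 0.05.

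The transcription factors that mark the SCN had positive log2 fold changes in 15 of 17 measured members, and 4 of the 17 were called, all higher, where 0.805% of all genes tested were called higher, with a list median log2 fold change of 0.69. Rora and Rorb encode nuclear receptors that bind the ROR element of Arntl and other clock genes. Rora (chromosome 9, 68653786 to 69388246) was at 45.1 to 127 CPM (median 103) in the poor punches and at 147 to 234 CPM (median 197) in the rich ones. The groups did not overlap, with a log2 fold change of 1.07 ± 0.22 (SE, n = 6 and 6, edgeR's adjusted p = 0.0301). Rorb was at 32.7 to 80.0 CPM in the poor and 84.6 to 188 CPM in the rich punches, a difference of 1.09 ± 0.21 on the log2 scale (edgeR's adjusted p = 0.0276). Six3, a homeodomain factor of the early forebrain and eye, was at 16.4 to 36.5 CPM in the poor and 45.5 to 85.4 CPM in the rich punches, with a log2 fold change of 1.36 ± 0.22 (edgeR's adjusted p = 0.0124). Vax1, a homeobox factor of the ventral forebrain, was at 4.24 to 7.16 CPM and 10.4 to 14.7 CPM, with 1.06 ± 0.14 (edgeR's adjusted p = 0.0124). All 4 ranges were separate. Six3 shares exonic bases with its antisense gene Six3os1, which was called higher too (1.2), and reads of these genes may be split between them.

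Zfhx3, a zinc finger homeobox factor that sets the pace of the SCN clock, was at 33.1 to 92.7 CPM in the poor and 67.4 to 246 CPM in the rich punches, with a log2 fold change of 1.09 ± 0.32 that missed the threshold (edgeR's adjusted p = 0.0909). Lhx2 was at 1.09 to 3.31 CPM in the poor punches and at 1.40 to 2.21 CPM in 5 of the rich ones, while J1157 stood alone at 16.8 CPM. Its log2 fold change was 1.13 with J1157 and -0.04 without it, and neither was called. Tshz3 (0.80) was not called, and the lowest value of the list was -0.19.

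Peptide genes of the SCN were split. Of 13 measured, 10 had a positive log2 fold change, with a list median of 0.74. By edgeR 2 were called higher and 0 lower, where 0.805% of all genes tested were called higher. DESeq2 called 5 and 1, and 8 had an unadjusted p under 0.05 by edgeR. Nmu and Calca were not among the genes of the table. Vip (chromosome 10, 5639218 to 5647617), the coupling peptide of the core, was at 8.29 to 36.5 CPM (median 27.1) in the poor punches and at 33.1 to 135 CPM (median 77.8) in the rich ones. The ranges met at one rich punch (J1159), and the log2 fold change was 1.64 ± 0.34 (edgeR's adjusted p = 0.0335). Grp (chromosome 18, 65872820 to 65886596) was low, at 0.731 to 3.65 CPM in the poor and 5.55 to 8.66 CPM in the rich punches, with separate ranges and a log2 fold change of 1.35 ± 0.29 (edgeR's adjusted p = 0.0375). Both are core peptides.

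Among peptides of the shell or of wider SCN neurons, the differences were of like sign and not called by edgeR, while DESeq2 called Nms higher. Avp was at 22.7 to 126 CPM in the poor and 117 to 189 CPM in the rich punches, with a log2 fold change of 0.87 ± 0.31 (edgeR's adjusted p = 0.120). Prok2, which encodes prokineticin 2, an output signal of the SCN, was at 1.07 to 15.1 CPM and 16 to 24.7 CPM, with 1.06 ± 0.38 (edgeR's adjusted p = 0.120). Nms, neuromedin S, was at 1.41 to 9.90 CPM and 7.48 to 15.5 CPM, with 1.33 ± 0.36 (edgeR's adjusted p = 0.0804). Prok2 did not overlap between the groups, while Avp and Nms did. Over the 17 libraries all 3 followed the score, with edgeR's adjusted p = 0.0216 for Avp, 0.04 for Prok2 and 0.00739 for Nms. The difference between core and shell peptides was not tested.

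The peptide genes with a negative value were Cartpt (-1.74 ± 0.53), Gal (-1.31 ± 0.65) and Tac1 (-1.07 ± 0.56), none of them called by edgeR, while DESeq2 called Cartpt lower. Cartpt, the CART peptide precursor, was at 5.6 to 79.7 CPM in the poor and 3.37 to 16.6 CPM in the rich punches. Gal, galanin, was at 4.15 to 75.8 CPM and 2.54 to 16.3 CPM. Tac1 was at 3.69 to 35.3 CPM and 1.35 to 17.4 CPM. The values of all 3 genes overlapped between the groups, and the range in CPM was wider in the poor punches. On a log scale Tac1 ranged more widely in the rich punches. These peptides are also made by hypothalamic neurons outside the SCN.

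Receptor and signalling genes of the SCN had 5 of 19 members called, all higher (0.805% of all genes tested), with a list median log2 fold change of 0.48. Rgs16 (chromosome 1, 153740349 to 153745468), a regulator of G-protein signalling that in the SCN relieves the brake on cAMP around dawn, had the largest value of the list. It was at 7.51 to 41.4 CPM (median 27.8) in the poor and at 62.6 to 125 CPM (median 90.5) in the rich punches, with separate ranges and a log2 fold change of 1.68 ± 0.30 (edgeR's adjusted p = 0.0158). Rasl11b, a small GTPase of the Ras family, was at 3.51 to 16.4 CPM and 23.6 to 30.6 CPM, with 1.47 ± 0.28 (edgeR's adjusted p = 0.0237). Grpr (chromosome X, 163513904 to 163549677), the receptor for the peptide Grp, was at 2.1 to 3.65 CPM and 4.72 to 8.33 CPM, with 1.27 ± 0.19 (edgeR's adjusted p = 0.0124). Both were separate between the groups. Rgs16 and Rasl11b were also on the list of transcripts that the study singled out in these libraries.

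Drd1, the D1 dopamine receptor, was at 3.51 to 8.61 CPM in the poor and 8.43 to 17.9 CPM in the rich punches, with a log2 fold change of 1.16 ± 0.24 (edgeR's adjusted p = 0.0327). With J1199 and J1140 among the scored libraries its value turned to -0.41. Cacna1d, the pore subunit of the L-type calcium channel CaV1.3, rose by 0.66 ± 0.14 on the log2 scale (edgeR's adjusted p = 0.0407). Vipr2, the receptor through which Vip couples SCN neurons, was at 2.49 to 15.6 CPM in the poor and 13 to 31.4 CPM in the rich punches, with 1.46 ± 0.36 that missed the threshold (edgeR's adjusted p = 0.0645). The receptor of prokineticin 2, Prokr2, likewise had 1.5 ± 0.37 (edgeR's adjusted p = 0.0637) and the vasopressin receptor Avpr1a 0.91 ± 0.22 (edgeR's adjusted p = 0.0611). Over the 17 libraries these receptors followed the score, with edgeR's adjusted p = 0.00179 for Vipr2, 0.000339 for Prokr2 and 0.0117 for Avpr1a. DESeq2 called all 3 higher in the 6 against 6 comparison as well.

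**Figure D2:**
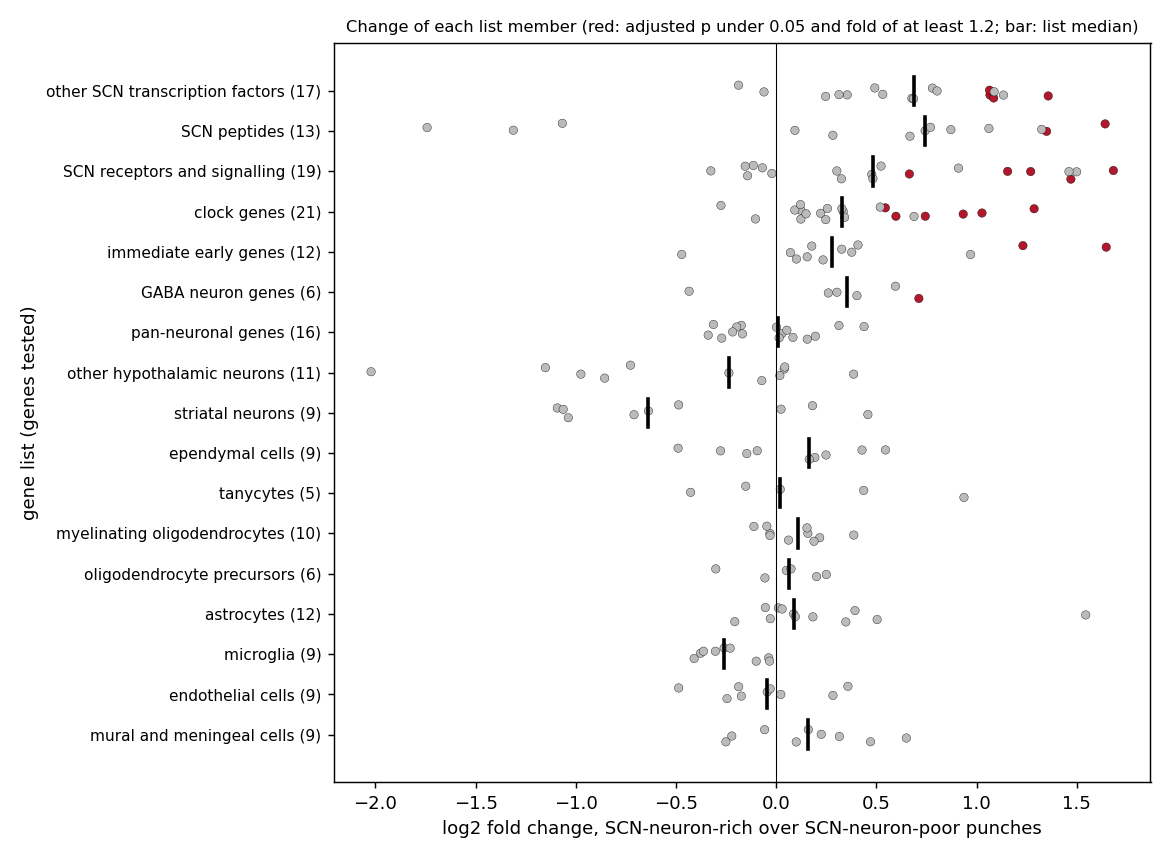
Log2 fold change of rich over poor punches (x axis) for each measured member of 17 gene lists (y axis, number of genes tested in brackets), with called genes in red and the list median as a black bar. Called genes lie in the 6 upper lists, the medians of the SCN lists lie at 0.48 to 0.74, and the pan-neuronal median lies at 0.01.

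Clock genes had positive log2 fold changes in 19 of 21 measured members, with 6 called higher, 0 called lower by edgeR (9 and 0 by DESeq2, with 12 at an unadjusted p under 0.05), beside 0.805% of all genes called higher, and a list median log2 fold change of 0.33. Per2 (chromosome 1, 91415982 to 91459324), a repressor of the clock, was at 9.16 to 27.6 CPM (median 15.6) in the poor and at 25.8 to 66.4 CPM (median 43.5) in the rich punches, a log2 fold change of 1.29 ± 0.27 (edgeR's adjusted p = 0.0364). Per1 (chromosome 11, 69095217 to 69109960) was at 17.9 to 34.4 CPM and 43.2 to 67.6 CPM, with 1.03 ± 0.17 (edgeR's adjusted p = 0.0124). The ranges of Per1 were separate and those of Per2 overlapped. Per2 was highest in the rich punches J1157 and J1159, at 66.4 and 57.2 CPM. Nr1d1, which encodes the repressor REV-ERBα, was at 29.2 to 50.5 CPM and 48.7 to 87.5 CPM, with 0.93 ± 0.16 (edgeR's adjusted p = 0.0136), and its exons overlap those of Thra on the other strand. The PAR bZIP factors Hlf (0.74 ± 0.11) and Dbp (0.60 ± 0.11) and the repressor Bhlhe41 (0.55 ± 0.10) were called with separate ranges.

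The activators Clock (0.33 ± 0.09) and Arntl (0.22 ± 0.11) and the repressor Cry1 (0.26 ± 0.14) were not called, with edgeR's adjusted p of 0.0877, 0.204 and 0.255. Per3 (0.52 ± 0.15) and Nr1d2 (0.15 ± 0.11) were not called either. DESeq2 called Clock and Per3 higher. Npas2, a relative of Clock, had a value of -0.28. At ZT6 the Period genes are high in the SCN and Arntl is low, and with a single time point a change of level and a change of phase cannot be told apart.

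**Figure D3:**
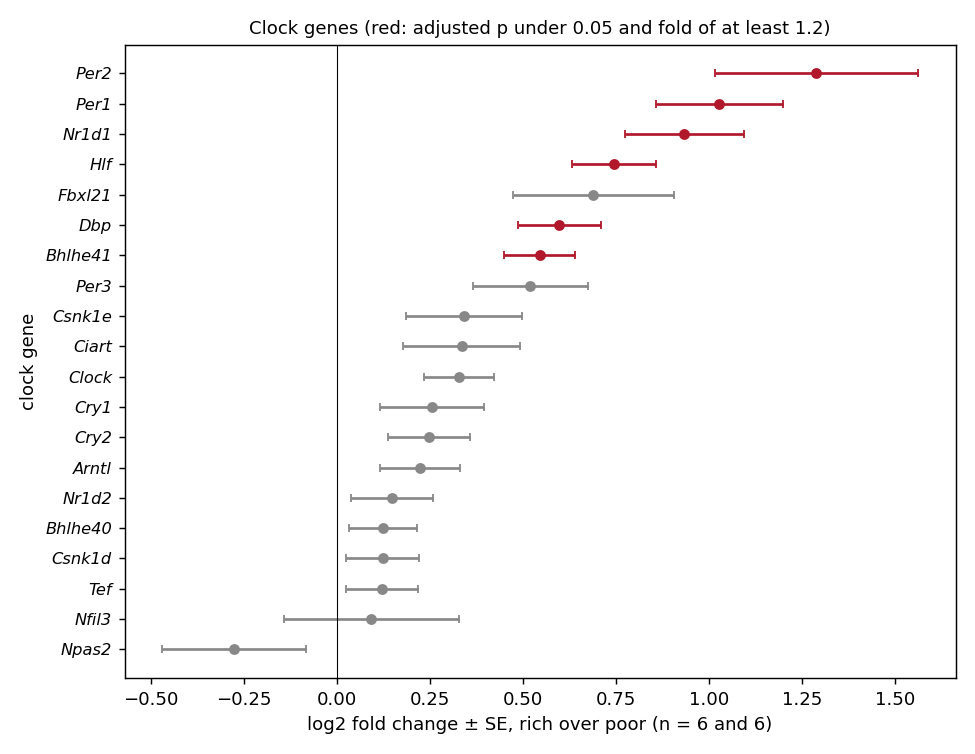
Log2 fold change ± SE of 20 of the 21 clock genes measured (y axis) in 6 rich against 6 poor punches (x axis), with called genes in red. Per2 and Per1 lie above 1 while Clock, Arntl and Cry1 lie between 0.22 and 0.33.

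Immediate early genes, which report recent activity of a cell, had 2 of 12 measured members called, both higher. Over all genes tested, 0.805% were called higher, and the list median log2 fold change was 0.28. Nr4a3 (chromosome 4, 48045153 to 48086447), an orphan nuclear receptor, was at 4.24 to 14.6 CPM (median 9.67) in the poor and at 22.8 to 38.8 CPM (median 29.1) in the rich punches, with a log2 fold change of 1.65 ± 0.23 (edgeR's adjusted p = 0.0124). Fosl2, a subunit of the AP-1 factor, was at 5.12 to 13.1 CPM and 16.7 to 23.0 CPM, with 1.23 ± 0.21 (edgeR's adjusted p = 0.0136). Nr4a1 was separate between the groups too but missed the threshold (0.97 ± 0.23, edgeR's adjusted p = 0.0560), while DESeq2 called it higher. Fos was at 2.35 to 9.23 CPM and 4.72 to 11.1 CPM, a difference of 0.41 ± 0.28 that was not called.

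Promoter sequence is shown for 4 genes that rose and 1 that fell, because SCN neurons are known to drive several of these genes through clock and cAMP elements. Windows of 250 bases before the transcription start came from RefSeq on GRCm38.p6 and were cut to the stretch outside annotated exons. The letters searched were CACGTG, the E-box bound by CLOCK and ARNTL, and TGACG, the core of the cAMP response element (CRE), with its reverse complement CGTCA; capitals mark the matches. Counts over promoters also cover the full CRE, which is TGACG followed by TCA and so contains the core, and the D-box, TTATG followed by TAA, on both strands. Shown 5′ to 3′ on the strand of the gene are chr10:5638968-5639217 (plus) for Vip, chrX:163549737-163549986 (minus) for Grpr, chr11:69098699-69098947 (plus) for the first of 2 Per1 promoters, chr4:48045055-48045152 (plus) for Nr4a3 and chr1:169747643-169747892 (minus) for Rgs4, which fell.
Vip: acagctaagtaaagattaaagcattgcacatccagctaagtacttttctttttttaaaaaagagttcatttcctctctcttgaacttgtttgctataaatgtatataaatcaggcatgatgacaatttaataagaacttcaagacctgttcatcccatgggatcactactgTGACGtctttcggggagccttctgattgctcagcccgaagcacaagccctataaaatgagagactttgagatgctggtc
Grpr: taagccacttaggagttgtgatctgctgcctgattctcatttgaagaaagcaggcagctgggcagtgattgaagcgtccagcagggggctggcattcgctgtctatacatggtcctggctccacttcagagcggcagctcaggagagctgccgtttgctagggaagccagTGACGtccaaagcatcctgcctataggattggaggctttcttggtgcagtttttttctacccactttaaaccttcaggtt
Per1: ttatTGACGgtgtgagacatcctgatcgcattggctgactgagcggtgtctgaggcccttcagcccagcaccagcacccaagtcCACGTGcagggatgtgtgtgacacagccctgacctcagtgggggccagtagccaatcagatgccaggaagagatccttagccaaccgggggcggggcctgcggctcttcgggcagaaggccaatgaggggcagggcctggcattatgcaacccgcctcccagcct
Nr4a3: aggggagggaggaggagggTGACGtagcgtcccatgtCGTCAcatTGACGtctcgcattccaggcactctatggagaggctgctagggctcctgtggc
Rgs4: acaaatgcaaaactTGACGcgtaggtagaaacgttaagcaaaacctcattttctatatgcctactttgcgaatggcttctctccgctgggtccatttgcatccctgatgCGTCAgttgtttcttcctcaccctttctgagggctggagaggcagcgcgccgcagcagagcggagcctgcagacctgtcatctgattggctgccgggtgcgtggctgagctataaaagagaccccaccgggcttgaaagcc
The CRE core began 79 bases before the start in Vip and 80 bases before it in Grpr. Per1 held an E-box 166 bases and a CRE core 246 bases before this start, and Nr4a3 held 3 CRE cores in the stretch shown. Rgs4, which fell, held 2 CRE cores, 236 and 141 bases before its start. Rgs16 held neither motif in its window. Over the genes called higher, 18.1% of 94 promoters held a CRE core, against 21.4% of 42 promoters of the genes called lower and 17.8% of all 32851 promoters of the table. The 94 promoters came from 74 of the 97 genes called higher, and the 42 from 25 of the 29 called lower. All 32851 promoters cover 27025 genes and were not limited to the genes tested. E-boxes were in 4.26%, 4.76% and 6.02% of the same sets. The full CRE was in 4 of 94 promoters of the genes called higher (4.26%), in 0 of 42 of those called lower and in 1.55% of all promoters, and the D-box in 0 of 94, 0 of 42 and 0.819%. These shares were not tested, and a match does not show a bound site.

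Beyond the lists, the genes with the largest values among those separate between groups and called in both analyses included Igfbp5, which encodes a binding protein of insulin-like growth factors. It was at 46.3 to 148 CPM in the poor and 161 to 383 CPM in the rich punches, with a log2 fold change of 1.52 ± 0.26 (edgeR's adjusted p = 0.0136). Dusp4, a phosphatase of MAP kinases, was at 3.02 to 15.9 CPM and 18.9 to 31.0 CPM (1.49 ± 0.34), and Srrm4, a splicing factor of neuronal microexons, at 5.61 to 13.2 CPM and 15 to 47.7 CPM (1.45 ± 0.29). Dlk1, an imprinted gene for a Notch-like transmembrane protein, was at 70.5 to 163 CPM and 166 to 427 CPM (1.29 ± 0.26), and Trp53i11 had a log2 fold change of 1.24 ± 0.23. Srrm4, Dlk1 and Trp53i11 were highest in the rich punches J1157 and J1159, the deepest libraries. There Srrm4 was at 47.7 and 43.1 CPM and Dlk1 at 427 and 392 CPM. In all, 70 genes met this rule upward and 21 downward.

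Genes lower in the rich punches were fewer. Rgs4 (chromosome 1, 169741477 to 169747642), a regulator of G-protein signalling of the same family as Rgs16, was at 39.7 to 90.5 CPM (median 63.9) in the poor and at 27.5 to 37.7 CPM (median 28.9) in the rich punches. Its ranges were separate and the log2 fold change was -1.09 ± 0.17 (edgeR's adjusted p = 0.0124), so Rgs4 and Rgs16 differed in opposite directions between the same punches. Dgkb (chromosome 12, 37817726 to 38634239), a diacylglycerol kinase, was at 51.7 to 76.4 CPM and 29.4 to 48.8 CPM, with -0.76 ± 0.13 (edgeR's adjusted p = 0.0136). Kcnip1, which encodes an accessory protein of Kv4 potassium channels, was at 12.6 to 18.3 CPM and 6.55 to 11.6 CPM, with -0.77 ± 0.14 (edgeR's adjusted p = 0.0166). Fat3, a giant cadherin of neurites, was at 148 to 199 CPM and 82.8 to 125 CPM, with -0.73 ± 0.12 (edgeR's adjusted p = 0.0125).

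Among the called genes with separate ranges, the largest negative value belonged to Tmem215, at 2.55 to 16.1 CPM in the poor and 1.25 to 2.40 CPM in the rich punches (-1.97 ± 0.40, edgeR's adjusted p = 0.0308). Adarb2, a relative of the RNA editing enzymes, had -1.02 ± 0.20, and Mcf2, an exchange factor of small GTPases, had -1.02 ± 0.22. Dcc, the netrin receptor of growing axons, had -0.67 ± 0.15. Cops9 (-0.88), Minar1 (-0.83), Uchl3 (-0.78) and Mtfp1 (-0.69) completed the 12. Of the genes named here as called, Six3, Grpr, Hlf and Rgs4 were called in 30 of 31 alternative analyses and Rgs16 in 27. Per2 and Dlk1 were called in 18 of them, Vip and Srrm4 in 17, Grp in 13 and Dcc in 12. The alternatives with no filter, with DESeq2 size factors and with a score without Lhx1 called the same 126 genes as the main fit. The tallies are therefore not of 31 separate checks.

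Over the 17 libraries, 20 of 49 genes of the peptide, receptor and transcription factor lists correlated with the score at an adjusted p under 0.05, in a permutation test of Pearson's r with 100000 resamples adjusted over all 12044 genes. The same held for 4.42% of all genes. Rora had r = 0.957 and a Spearman coefficient of 0.963 (permutation p = 1e-05, the smallest these resamples can give, adjusted 0.00274), with r = 0.935 without J1018 and J1011 and 0.975 and 0.928 within the lower and upper range of mouse numbers. Rgs16 had r = 0.930 and a Spearman coefficient of 0.956 (permutation p = 1e-05, adjusted 0.00274), with 0.910 without those libraries and 0.914 and 0.942 within the ranges. For Vip, r was 0.764 and the Spearman coefficient 0.745 (permutation p = 0.00031, adjusted 0.0182), and r was 0.711 without the farthest libraries and 0.878 and 0.621 within the ranges. Each of these relations kept its sign without the farthest libraries and in both ranges.

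Grpr (r = 0.858), Vipr2 (0.846), Prokr2 (0.871), Grp (0.819) and Nms (0.819) lay close to each other. Nms rested in part on the farthest libraries, with r = 0.616 without them and a Spearman coefficient of 0.615 whose adjusted permutation p was 0.0818. Some members of the lists showed little relation: Dlx1 had r = -0.01, Cckar r = 0.01 and Adcyap1r1 r = -0.12, none past the threshold. Penk had r = 0.319 over all libraries, 0.607 within the lower and -0.262 within the upper range.

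**Figure D4:**
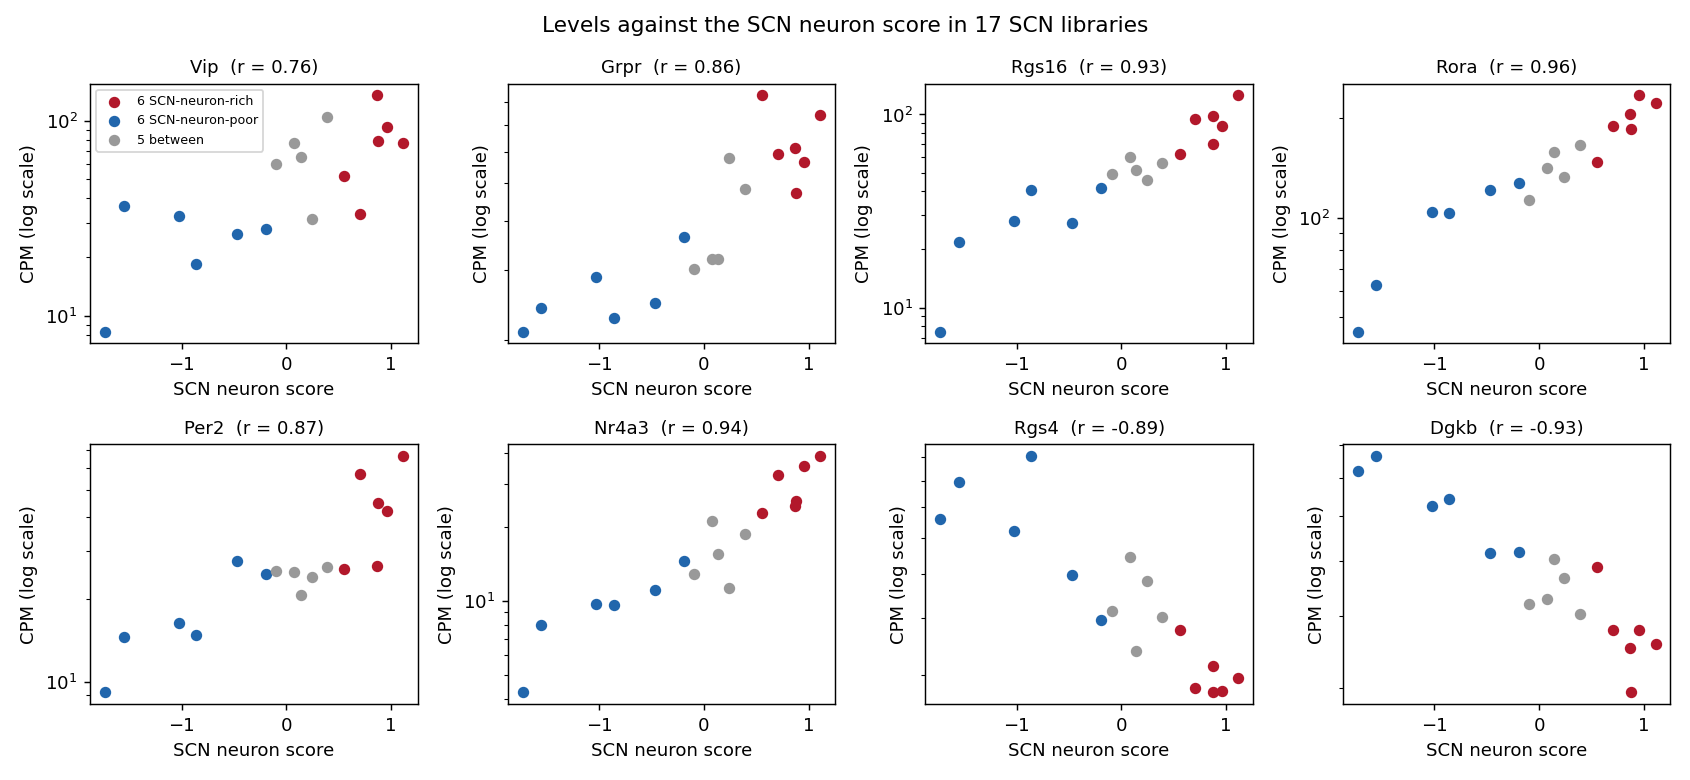
CPM on a log scale (y axis) of 8 genes against the SCN neuron score (x axis) in 17 SCN libraries, coloured by group. Levels of Rora, Rgs16 and Nr4a3 rose with the score over the 17 libraries, and Rgs4 and Dgkb declined along it (r = -0.890 and -0.933). Among the 5 libraries between the groups, Rgs16 and Nr4a3 did not rise steadily. There J1177, at a score of 0.241, held the lowest level of each (45.5 and 11.3 CPM).

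As a description, the 10 genes whose level was most like the score over the 17 libraries were Slc2a13 (r = 0.958), Rora (0.957), Sik1 (0.941), Tcf12 (0.939), Nr4a3 (0.936), Rgs16 (0.930), Per1 (0.925), Rasl11b (0.923), Nkd1 (0.922) and Dusp4 (0.920). Slc2a13 encodes a transporter of myo-inositol and Sik1 a kinase induced by cAMP. The most opposed were Dgkb (-0.933), Rgs4 (-0.890) and Kcnip1 (-0.869).

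Genes shared by most neurons were not called. Of 16 pan-neuronal genes, 0 were called by edgeR and 0 by DESeq2, 2 had an unadjusted p under 0.05, 9 were positive, and the list median log2 fold change was 0.01, with values from -0.34 to 0.44. Their summed level was 2604 to 4350 CPM in the rich and 2472 to 3503 CPM in the poor punches. Genes of GABA neurons had 1 of 6 members called, where 0.805% of all genes tested were called higher. This was Gad1, which encodes an enzyme that makes GABA. It was at 101 to 170 CPM in the poor and 168 to 331 CPM in the rich punches (0.71 ± 0.16, edgeR's adjusted p = 0.0456). Gad2 (0.60 ± 0.24) was not called.

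Markers of hypothalamic neurons outside the SCN had 0 of 11 members called by edgeR, and DESeq2 called Esr1 lower. At an unadjusted p under 0.05 by edgeR were 3 of the 11, beside 3111 of all 12044 genes tested. Of the 11, 7 were negative, with a list median log2 fold change of -0.24 and a summed level of 237 to 356 CPM in the rich and 263 to 512 CPM in the poor punches. Esr1, the estrogen receptor, was at 6.89 to 42.8 CPM in the poor and 6.81 to 10.5 CPM in the rich punches (-1.15 ± 0.34, edgeR's adjusted p = 0.0934). Slc17a6, the vesicular glutamate transporter of hypothalamic neurons, was at 46.3 to 120 CPM and 25.7 to 68.8 CPM (-0.73 ± 0.26), and Th at 3.24 to 17.2 CPM and 2.91 to 7.73 CPM (-0.97 ± 0.36). Over the 17 libraries Esr1 fell with the score (edgeR's adjusted p = 0.00284). Agrp, Npy, Hcrt, Pmch, Crh and Kiss1 were not among the genes of the table.

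For other cell types, no list had a member called by edgeR in the 6 against 6 comparison: 0 of 9 ependymal, 0 of 5 tanycyte, 0 of 10 myelin, 0 of 6 precursor, 0 of 12 astrocyte, 0 of 9 microglial, 0 of 9 endothelial, 0 of 9 mural and meningeal and 0 of 9 striatal genes. At an unadjusted p under 0.05 were 5 striatal and 3 astrocyte genes and 1 gene each of the tanycyte, endothelial and mural lists, and DESeq2 called Gfap, Sox9 and Nes higher and Isl1 and Ano3 lower. Over the 17 libraries edgeR called 5 of these genes: Gfap (adjusted p = 0.0359) and Nes (0.0479) rose with the score, and 3 striatal genes, among them Ano3 (0.0448) and Isl1 (0.0493), fell with it. The summed ependymal level was 46.3 to 114 CPM in the rich and 31.1 to 136 CPM in the poor punches, and the myelin level 1013.3 to 3245.5 CPM and 465 to 3403 CPM. Both overlapped between the groups, and with both as covariates 41 genes were called, each of them among the 126. Gfap, the filament of reactive astrocytes, was at 57.7 to 169 CPM in the poor and 96.3 to 635 CPM in the rich punches, with 1.55 ± 0.42 that was not called (edgeR's adjusted p = 0.0761), while the astrocyte list had a median of 0.09. All 9 microglial genes were negative, with a median of -0.26. Striatal genes had a median of -0.64, and the defining striatal markers Drd2 and Adora2a were not in the table.

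The other regions, matched by mouse number, were not used to form the groups and give a separate comparison. For J1165 the match is uncertain, because its SCN library went against its NAc and PFC libraries in Xist. J1165 counts among the poor mice in both regions, and no fit of these regions without it is given. In the NAc of the 12 mice, 0 of 11567 genes were called (0%) by edgeR, with 97 at an unadjusted p under 0.05, and DESeq2 called 0. In the PFC, with 6 rich and 3 poor mice, 0 of 11559 genes were called (0%) by edgeR, with 273 at an unadjusted p under 0.05. DESeq2 called 1 gene there, Arl4d, at 1.45 to 3.11 CPM in the PFC of the rich and 2.96 to 8.63 CPM in that of the poor mice (DESeq2's log2 fold change -1.58, adjusted p = 0.0135; edgeR's adjusted p = 0.991). Of the genes called in the SCN, 113 were tested in the NAc, where 54 had the same sign and 0 had an unadjusted p under 0.05 by edgeR.

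Genes called in the SCN were not called in these regions. Per2 had a log2 fold change of 0.07 in the NAc and 0.04 in the PFC, Per1 0.10 and -0.01, Rora -0.09 and 0.07, and Nr4a3 -0.13 and -0.11. Rgs4 had -0.18 and 0.04, and Dgkb -0.14 and -0.15. None of these reached an unadjusted p of 0.05 by edgeR. Larger values were those of Dusp4 in the NAc (0.47) and of Drd1 in the PFC (-0.52), also above that p. Fos, not called in the SCN, had an NAc value of -0.42 and a PFC value of -1.75, the second at an unadjusted p of 0.00222 (edgeR's adjusted p = 0.991). Rgs16, Grp, Grpr, Vax1 and Tmem215 were among the 13 genes called in the SCN that the NAc and PFC table does not hold (10.3% of the calls, against 7.57% of all SCN genes tested). In simulated NAc counts edgeR recovered 200 of 200 genes changed 2-fold. The SCN simulation gave 200 of 200 too, yet in the measured SCN counts Prokr2 (1.5) and Vipr2 (1.46) were not called by edgeR. The recovery therefore does not show that a change of this size would be called in the NAc.

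**Figure D5:**
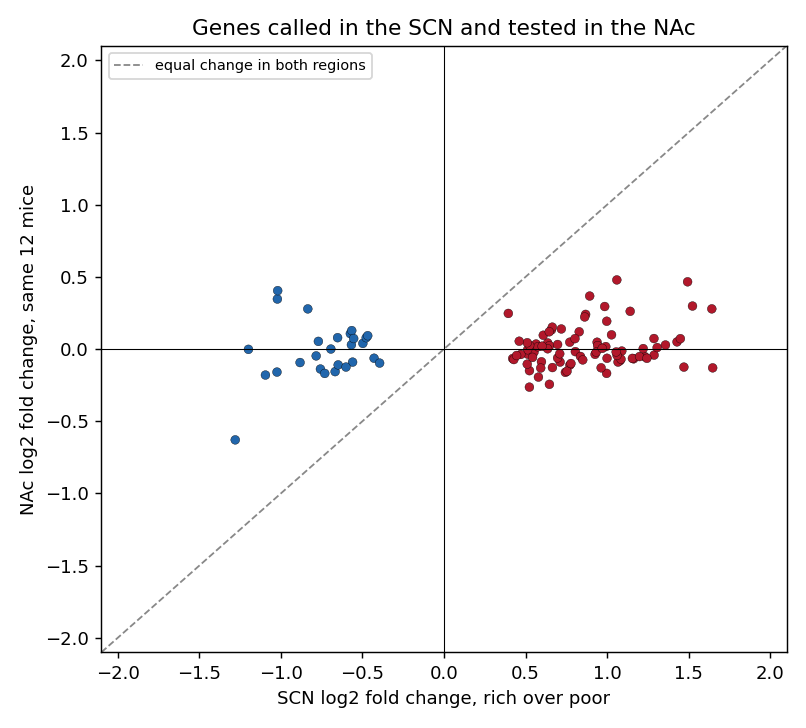
Log2 fold change of rich over poor mice in the SCN (x axis) and in the NAc (y axis) for the 113 genes called in the SCN and tested in the NAc. The 12 mice were matched by number, J1165 included, and the dashed line marks equal change. Points spread along the horizontal axis, with 54 of 113 of the same sign in both regions.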

How the data were processed

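Gene counts of the 19 SCN libraries and of the same mice's NAc and PFC were used; the groups and the score are given with the results. Per the labels and the paper's methods, the authors made libraries with a SmartSeq HT kit, checked reads with FastQC 0.11.7, aligned them to GRCm38 with HISAT2 and used HTSeq (union mode) to count reads per gene. The deposited counts are filtered for genes above 1 CPM and without chromosome Y, but not normalized, with the SCN in a table of its own. Each region was therefore fitted alone, with TMM scaling, filterByExpr and edgeR's quasi-likelihood test (edgeR 4.0.16, R 4.3.3). Calls needed a Benjamini-Hochberg adjusted p under 0.05 over all genes and a fold change of at least 1.2; slopes on the score needed the adjusted p alone. CPM used TMM over the 17 scored libraries. Correlations used log2(CPM + 1) and two-sided permutation tests (numpy 2.4.6, scipy 1.17.1, Python 3.11.15), adjusted over all genes. All comparisons are two-sided.

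Depth limits the precision: totals were 18174520 to 35389742 counts in the compared punches, of which ribosomal RNA took the shares given with the results. Genes of a few CPM rest on fewer counts than genes of higher CPM. Each library is 1 mouse. The lowest chi-square per gene between 2 SCN libraries was 19.6, so none was a duplicate. The deposited tables held no column without a matching label.

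Genes named are the 12 largest in each direction among those called in both SCN analyses with separate groups and a gene symbol other than Gm or Rik, the called members of the lists (up to 4 a list, by size) and list members needed to describe a list. 1 clock gene and 1 striatal gene are counted in their lists but not reported here by name. The groups, members and lists were chosen with earlier results of these data known. Positions and exons came from GENCODE M21, promoters from RefSeq on GRCm38.p6. DESeq2 1.42.0, other filters, libraries, group sizes and scores were alternatives; total count, ribosomal RNA share and the omission of J1157 with J1159 were chosen after seeing the data. In simulated SCN counts edgeR recovered 200 of 200 genes changed 2-fold with 6 false calls.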

Additional observations from a re-analysis of the deposited data

Results flagged for a closer look

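In 8 of 124 sets of 6 values (62 named genes in 2 groups) 1 punch stood apart from the other 5 by Dixon's test on log2(CPM + 1); chance gives about 1 in 20. Of these, 5 came from the poor punch J1018, which had the lowest score. There Rorb was at 32.7 CPM with 65.4 CPM next (gap over range 0.773), Hlf at 38.7 with 54.6 CPM next (0.714), Gad1 at 101 with 141 CPM next (0.635), Prok2 at 1.07 with 8.04 CPM next (0.718) and Avpr1a at 1.66 with 3.28 CPM next (0.652). All 5 genes were lowest in this punch, and without it 67 genes were called in place of 126.

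Lhx2 reached 16.8 CPM in the rich punch J1157 with 2.21 CPM next (0.855). Pomc, the precursor of melanocortins in neurons of the arcuate nucleus, was at 42.3 CPM in the rich punch J1141 with 5.59 CPM next (0.678). Adarb2 was at 2.86 CPM in the rich punch J1021 with 4.11 CPM next (0.739). The part of any other cell type in these values was not tested.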

How the results depend on the processing

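No paired analysis was possible because every SCN library came from a different mouse and the 2 groups share no mouse number. The direction of the 126 genes was kept in every alternative that held them, except for 1 gene with all 19 SCN libraries scored, but the number called was not. It was 861 with DESeq2, 514 with all 19 libraries, 1894 without SCN J1165 after scoring again, 209 with a score without Six6, 41 with ependymal and myelin levels as covariates, 41 for 8 highest against 8 lowest, and 505 with all 17 libraries in 3 classes. Alternatives added after the data had been seen gave 68 with total count and 0 with the ribosomal RNA share as a covariate (972 at an unadjusted p under 0.05), and 32 without J1157 and J1159. Leaving out 1 library gave 50 to 693. For the slope over 17 libraries (727), the numbers were 1326 with DESeq2, 293 without Lhx1 and 1746 without Syt10 in the score, 332 with the range of mouse numbers as a term, 146 and 7 within the lower and upper range, 138 without the 2 farthest libraries, 213 with total count, 348 with ribosomal RNA share and 304 without J1157 and J1159. DESeq2 made 1 call in the PFC. Its calls were 58.4% higher in the SCN comparison (edgeR 77%) and 54.4% over the score (edgeR 64.1%). Values that turned were the log2 fold change of Drd1 (-0.41 with 19 libraries), the log2 fold change of Meis2 (0.68 for 4 against 4), the log2 fold change of Lhx2 (-0.041 without J1157, with a range of -0.041 to 1.32 over each library left out, -0.53 with ribosomal RNA share and -0.085 without J1157 and J1159) and the correlation of Nkx2-2 with the score (0.00396 with a pseudocount of 0.5). Of the other log2 fold changes of named genes, 1588 stayed on their side of the threshold, 261 lost and 61 gained a call. Except for the effects of fewer libraries, the cause of these shifts was not tested. With 6 libraries a group and a continuous score, some calls are uncertain. Among the called genes named, Dcc (12), Grp (13) and Gad1 (14) were called in few of the 31 alternative analyses. This did not follow level or size of change alone. Grpr, at a low level like Grp, and Hlf, with a log2 fold change of 0.74, were called in 30.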

Other observations

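Genes of the ribosome and of oxidative phosphorylation had nearly all values below 0 in the rich over poor comparison, with few calls. Of 116 ribosomal protein genes, 1 had a positive log2 fold change and 0 were called by edgeR (84 at an unadjusted p under 0.05, and 14 lower by DESeq2), with a median of -0.44; their summed level was 6479 to 11260 CPM in the rich and 9645 to 14979 CPM in the poor punches. Of 78 nuclear genes of oxidative phosphorylation, a list chosen after the data had been seen, 1 was positive, with a median of -0.38. Of the 78, 3 were called, all lower, where 0.241% of all genes tested were called lower. Ndufs3, a subunit of complex I, was at 29.4 to 38.0 CPM in the poor and 19.9 to 28.1 CPM in the rich punches (-0.48 ± 0.11, edgeR's adjusted p = 0.0472), Cox6b1, of complex IV, had -0.43 and Atp5l, of the ATP synthase, -0.57. These levels moved with the ribosomal RNA share and the depth given above, and their part in the result was not tested.

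Hcrtr2, an orexin receptor, at 2.02 to 7.85 CPM in the poor and 0.501 to 2.29 CPM in the rich punches (log2 fold change -1.82 ± 0.40, edgeR's adjusted p = 0.0407), and Bdnf, a neurotrophin, at 5.96 to 11.3 CPM and 3.26 to 6.2 CPM (-1.02 ± 0.20, edgeR's adjusted p = 0.0237), were called lower with overlapping ranges and were picked after their values were seen. Of 11 transcripts the study singled out in the SCN of these mice, Rgs16 and Rasl11b were called higher and Rgs4 was called lower. Vipr2 (1.46), Tac1 (-1.07), Ano3 (-1.04), Meis2 (-0.64) and Kcnq3 (-0.03) were among those not called by edgeR. DESeq2 called Vipr2 higher and Ano3 lower, and so did edgeR over the 17 libraries (adjusted p = 0.00179 and 0.0448). That list was chosen by the study on these samples and is no independent evidence of direction.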
